A study of Mus musculus with 16 samples.

Results

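The genes described here are 9 Krüppel-like factors that lie outside the erythroid programme, namely Klf2, Klf3, Klf4, Klf6, Klf7, Klf9, Klf10, Klf12 and Klf13. They were taken by gene symbol from a table of 54347 genes. RNA-seq was performed on 16 libraries of sorted mouse bone marrow cells, 4 from each of 4 groups. The study asked how blood progenitors with lowered levels of the transcription factor PU.1 survive before leukaemia. The 4 groups allow genotype to be compared within a cell type and cell type within a genotype.

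The group labelled URE came from mice that lack an upstream regulatory element (URE), an enhancer of Spi1, the gene of PU.1, in all of their cells. The WT group came from littermates. Both were on a C57BL/6 background and 8 to 12 weeks old, with 4 mice for each genotype and cell type. LSKs are lineage-negative Sca-1+ c-Kit+ cells, the gate that holds blood stem cells and multipotent progenitors. GMPs are lineage-negative Sca-1- c-Kit+ CD16/32+ cells, the gate of granulocyte and monocyte progenitors. No treatment is stated. Because the deletion is present in the germline, its effects in a cell and on the make-up of a gate cannot be told apart in these bulk samples, and neither can fewer cells of one type and less RNA per cell.

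Krüppel-like factors are zinc-finger proteins that bind GC-rich and CACCC-box DNA in promoters, and their family is shared with the SP factors. KLF2, KLF4, KLF6 and KLF7 act mostly as activators, KLF3 and KLF12 recruit the corepressor CtBP, and KLF9, KLF10 and KLF13 recruit the corepressor SIN3A. In blood, KLF4 is known for its part in monocyte formation downstream of PU.1, KLF2 for lymphocyte and endothelial quiescence, and KLF10 as a gene induced by TGF-beta.

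The libraries held between 20028302 and 29128858 counts each. Spi1 itself, the check of the genotype labels, stood at 124.1 ± 40.04 CPM (counts scaled to library size by TMM; mean ± SD, n = 4) in WT LSKs and 3.02 ± 1.42 in URE LSKs, and at 139.6 ± 40.6 in WT GMPs and 21.3 ± 5.97 in URE GMPs. The sort labels matched their defining markers. The summed level of 9 LSK markers was 2242 to 3808 CPM in the LSK libraries against 476.5 to 1507 in the GMP libraries, and that of 7 GMP markers was 697.6 to 1612 against 55780 to 160700. Within the GMP gate, the 7 monocyte markers summed to 1302 to 1994 CPM in WT and 83.1 to 700.8 CPM in URE. The 7 markers of maturing neutrophils summed to 52.3 to 155.6 and 245.4 to 1014 CPM, with 2 of them called higher and 1 lower in URE. Y-linked transcripts exceeded Xist in replicates 1, 2 and 3 of both WT groups but only in replicate 1 of both URE groups, so replicates 1 and 4 compare animals of the same sex, and replicates 2 and 3 do not.

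Klf4, Klf6, Klf7 and Klf9 were the members whose level differed between genotypes in GMPs by the test described below, and their promoters are shown for that reason. Each line gives the 250 bases before the RefSeq start of the gene on GRCm38.p6, 5′ to 3′ on the strand of the gene.
Klf4 promoter, chr4:55532476-55532725, minus strand: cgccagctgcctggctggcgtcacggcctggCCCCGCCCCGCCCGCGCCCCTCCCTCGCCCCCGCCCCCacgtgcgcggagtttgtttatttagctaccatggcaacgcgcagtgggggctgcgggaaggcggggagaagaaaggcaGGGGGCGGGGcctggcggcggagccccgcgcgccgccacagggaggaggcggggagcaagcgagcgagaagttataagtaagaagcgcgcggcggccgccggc
Klf6 promoter, chr13:5861239-5861488, plus strand: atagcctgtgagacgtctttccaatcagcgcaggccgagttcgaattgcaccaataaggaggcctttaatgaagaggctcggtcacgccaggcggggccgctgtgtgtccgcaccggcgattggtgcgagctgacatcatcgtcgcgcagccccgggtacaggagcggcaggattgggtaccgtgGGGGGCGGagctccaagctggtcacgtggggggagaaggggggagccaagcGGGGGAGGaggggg
Klf7 promoter, chr1:64121390-64121639, minus strand: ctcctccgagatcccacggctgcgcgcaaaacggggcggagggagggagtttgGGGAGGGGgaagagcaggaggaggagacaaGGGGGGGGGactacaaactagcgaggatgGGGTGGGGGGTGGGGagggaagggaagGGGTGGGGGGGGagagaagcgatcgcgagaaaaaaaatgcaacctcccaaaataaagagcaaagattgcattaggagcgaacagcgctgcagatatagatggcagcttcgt
Klf9 promoter, chr19:23140976-23141225, plus strand: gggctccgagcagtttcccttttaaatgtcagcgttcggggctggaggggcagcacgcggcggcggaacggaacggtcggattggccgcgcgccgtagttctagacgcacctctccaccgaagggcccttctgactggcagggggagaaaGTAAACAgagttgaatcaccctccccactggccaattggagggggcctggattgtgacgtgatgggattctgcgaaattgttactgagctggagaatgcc
Capitals mark matches, on either strand, to CCNCNCCC, and in Klf9 to GTAAACA, the letters of a FOXO site. Adjoining matches overlap and run together. CCNCNCCC takes in CACCC and GC boxes but also other letters, such as GGGGGGGG in Klf7 and GGGGGAGG in Klf6. Its matches are therefore not all such boxes. CCNCNCCC occurred in 7 of the 8 members with a promoter entry (Klf10 has none) and in 45.9% of 32841 RefSeq promoters of this length. It was found 9 times in Klf4, 8 times in Klf7, 2 times in Klf6 and not in Klf9, whose window held the GTAAACA match that 3.17% of promoters hold. GAGGAAGT, a run of letters PU.1 is known to bind, was in none of the 8 members' windows, against 2.44% of all promoters. The shorter ETS core GGAA, which lies inside GAGGAAGT, was in all of them but Klf13, against 93.5% of all. The MEF2 motif was found only in Klf2, against 3.2% of all, and TGACGTCA, the cAMP response element, in no member, against 1.55%.

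The 9 genes differed widely in level, and the leading gene was not the same in the cell types. Levels of different genes were compared as CPM per kb of the union of exons in GENCODE M21, and each gene's share is that of the sum over the 9 genes in a library. Klf10 held the largest share in LSKs, with 59.8 ± 8.71% in WT and 49.4 ± 10.3% in URE (n = 4). In GMPs Klf13 led, with 49.8 ± 7.01% in WT and 43.7 ± 0.785% in URE, and Klf10 followed with 32.8 ± 7.36% and 23.7 ± 4.46%. Klf6 ranked after them in all groups, at 16.6 ± 4.26% in WT LSKs, 19.9 ± 4.67% in URE LSKs, 9.89 ± 2.12% in WT GMPs and 18.8 ± 1.57% in URE GMPs. On the same per-length scale, the ranges of Klf13 and Klf6 overlapped in both LSK groups, and Klf13 was the higher in 2 of 4 WT and 3 of 4 URE libraries, so that their order there was not settled. The ranges of Klf13 and Klf10 in WT GMPs, and of Klf10 and Klf6 in URE GMPs, also overlapped between libraries, but the first-named gene was the higher in 4 of 4 libraries. Klf3, Klf7, Klf9 and Klf12 formed a lower tier between 0.735 and 4.48 CPM per kb on average, within which every pair of neighbours overlapped except Klf12 and Klf3 in WT GMPs. Klf4 came next, at 0.0657 CPM per kb in WT LSKs, 0.0972 in URE LSKs, 0.379 in WT GMPs and 0.0516 in URE GMPs, and Klf2 had the lowest mean in every group. The ranges of Klf4 and Klf2 overlapped in WT LSKs, where Klf4 was the higher in 3 of 4 libraries, and in URE GMPs (4 of 4).

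**Figure D1:**
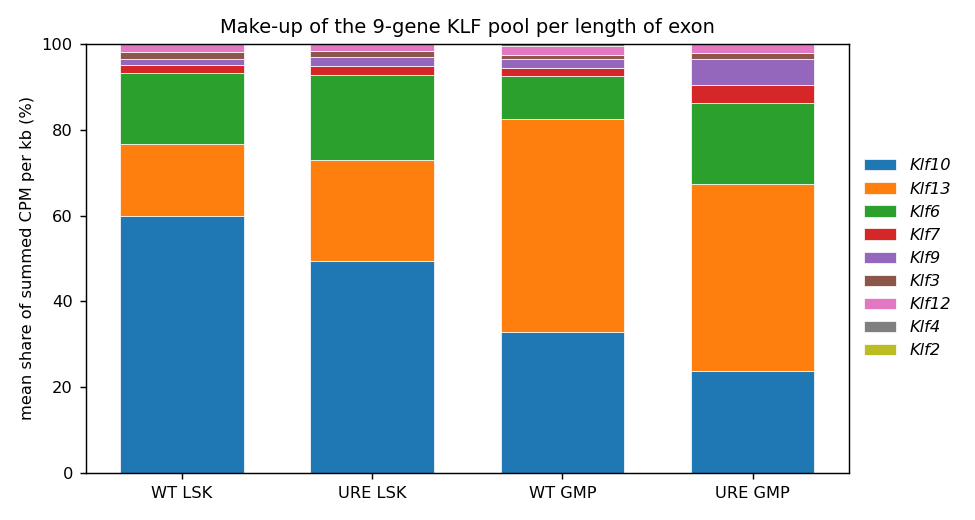
Stacked bars give the mean share of each member in the summed CPM per kb of the 9 genes, in percent, for the 4 groups (n = 4 each). Klf10 takes 59.8% in WT LSKs and Klf13 takes 49.8% in WT GMPs; Klf2 and Klf4 are too thin to see.

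Klf2, which encodes a factor of lymphocyte and endothelial quiescence, was close to undetected. Its transcript gave 12 counts over all 16 libraries, 0 in 10 of them and at most 3 in any other. All 4 URE LSK libraries were at 0, which allows up to 0.0994 to 0.126 CPM per library, and the WT LSK libraries held 1, 3, 3 and 0 counts. The filter on low counts left Klf2 out of every comparison, without that filter and in DESeq2 it was not called in any, and no difference was detectable at this depth. The transcript of Klf2 is 61.6% G and C, above 97.8% of protein-coding genes, and over protein-coding genes the share reaching a mean of 1 CPM was 43.3% at 60 to 65% GC and 15.2% above that, against 59.5% at 50 to 55%; the part of GC content in the Klf2 counts was not tested.

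Genotype was compared first within GMPs, where 3 of the members rose in URE cells and 1 fell. The called members were Klf6, Klf7 and Klf9, which were higher, and Klf4, which was lower. Calls needed a fold change of more than 1.5 and an edgeR quasi-likelihood p under 0.05 after Benjamini-Hochberg adjustment over every gene tested. The 8 members other than Klf2 were tested. Klf4 passed the filter on low counts through its WT GMP libraries, the group where it is high, so that its call is given as a description and the count to read is that of the other 7, with 3 higher and 0 lower. Over all genes, 8.3% were called, 4.67% higher and 3.63% lower. The median log2 fold change of the 8 was 0.15, against 0.01 for all genes tested, with 4 members up and 4 down in sign. Klf4 is among those down, so that this median and these signs are also a description.

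Klf6, which encodes an activator induced by growth and stress signals, stood at 34.6, 34.3, 33.1 and 29.2 CPM in WT GMP replicates 1 to 4. In URE GMPs it stood at 61.5, 59.6, 64.3 and 55.5 CPM. The lowest URE library lay well above the highest WT library. The rise was 1.83-fold (log2 fold change 0.87 ± 0.15 SE, edgeR adjusted p = 0.00857). Since its groups did not overlap, Klf6 was higher in 4 of 4 numbered pairs, as it would be under any pairing. The groups of 14.8% of all genes did not overlap in this comparison. The call held in all 8 fits that left out 1 library.

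Klf7, which encodes an activator known from neurons, rose as well. It measured 12.2, 10.8, 14.9 and 12.4 CPM in WT GMPs and 20.9, 25.5, 25.9 and 27.3 CPM in URE GMPs. The genotypes did not overlap. The fold change was 1.97 (log2 0.98 ± 0.20 SE, edgeR adjusted p = 0.0156). The call was lost without URE GMP replicate 4 (adjusted p = 0.0554), WT GMP replicate 2 (0.0521) or WT GMP replicate 4 (0.0518). In GENCODE M21, up to 3196 exonic bases of Klf7 lie opposite exons of Gm26649 or Gm13748 on the other strand. Gm13748 had 1 to 9 counts per library in WT GMPs and 0 to 1 in URE GMPs. No counts were given under the name Gm26649, so its level is not known here. Since the libraries were not stranded, reads from these genes cannot be told apart.

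Klf9, which encodes a SIN3A-binding repressor known as a glucocorticoid and thyroid hormone target, had the widest spread of the 3. Its levels were 4.72, 8.93, 8.26 and 6.85 CPM in WT GMPs and 9.26, 38.9, 17.1 and 21 CPM in URE GMPs. The lowest URE library exceeded the highest WT library by a narrow margin, and URE replicate 2 was far above the others. That library also stood apart in its markers, with summed levels of 160700 CPM for GMP markers (others 73920 to 109400), 700.8 for monocyte markers (others 83.1 to 122.5) and 292.9 for erythroid and megakaryocyte markers (others 981.5 to 1718); their part in the Klf9 level was not tested. The log2 fold change was 1.56 ± 0.41 SE (2.95-fold, edgeR adjusted p = 0.0489). The call held in 1 of the 8 fits that left out a library; this was the fit without URE GMP replicate 1, and without URE GMP replicate 2 the value was 1.11 with an adjusted p of 0.116. Blocked by replicate number it was 1.44 (adjusted p = 0.00529).

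Klf4, whose product drives monocyte differentiation, was scarce and lower in URE GMPs. It gave 16, 37, 34 and 14 counts in WT GMPs and 1, 7, 2 and 2 counts in URE GMPs, or 1.16 ± 0.516 against 0.157 ± 0.142 CPM. No URE library reached the lowest WT library. Pooled over each group, 101 counts against 12 gave a level 7.47-fold lower in URE, with a 95% exact interval of 4.10 to 14.9 that covers counting error only. The edgeR log2 fold change was -2.86 ± 0.62 SE (adjusted p = 0.0210), and with no filter on low counts it was -2.85 and also called. Without URE GMP replicate 2, which gave 7 of the 12 URE counts, it was -3.67. The call was lost, with adjusted p between 0.0521 and 0.0808, without URE GMP replicate 1, 3 or 4 or without WT GMP replicate 2 or 3.

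Within the sex-matched replicates 1 and 4, which leaves 2 libraries a group, the 4 called members kept their direction and about the same size but not their calls; over all genes the same fit called 1236, against 1148 with all libraries. The log2 fold changes there were 0.86 for Klf6 (edgeR adjusted p = 0.0621), 0.95 for Klf7 (0.0724), 1.37 for Klf9 (0.109) and -3.10 for Klf4 (0.0514). In replicates 2 and 3, where sex and genotype cannot be told apart, they were 0.86, 0.97, 1.66 and -2.78.

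Monocyte markers moved with Klf4 in these libraries. Of the 7 markers (Ly86, Csf1r, Irf8, Ccr2, Cx3cr1, F13a1 and S100a4), 6 were tested and 4 were called lower in URE GMPs, and none of the 7 was at 0 throughout a group. Their summed level was 1994, 1665, 1302 and 1559 CPM in WT GMP replicates 1 to 4 and 83.1, 700.8, 84.1 and 122.5 CPM in URE GMP replicates 1 to 4. URE replicate 2, the library with the most monocyte marker RNA of its group, was also the one with the most Klf4. Within WT GMPs, the replicates with more Klf4 (2 and 3) were not those with the highest marker sum. The part of monocyte-committed cells in the Klf4 difference was not tested.

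**Figure D2:**
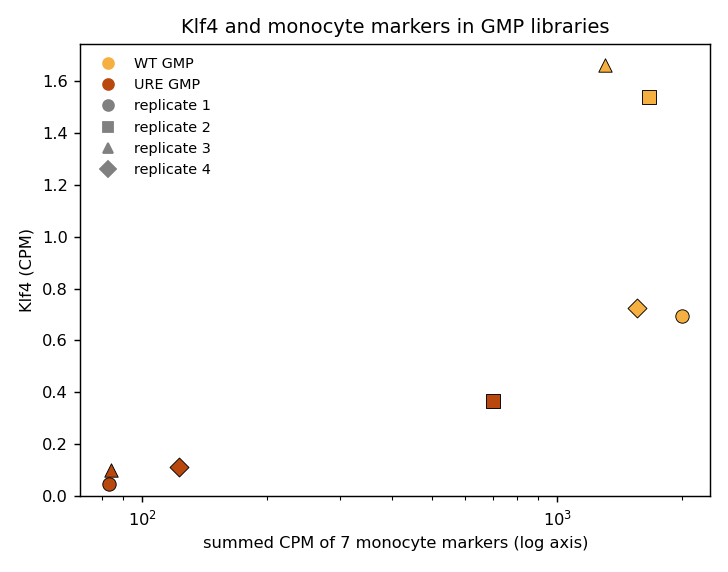
Each point is a GMP library, with the summed CPM of 7 monocyte markers on a log axis against Klf4 in CPM. The URE libraries lie at 83.1 to 122.5 CPM of markers except replicate 2 at 700.8, and all lie under the WT libraries in Klf4.

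The other members tested in GMPs did not pass. Klf10 stood at 140.7, 102.4, 65.01 and 120.8 CPM in WT and 101.1, 73.6, 65.4 and 54.1 CPM in URE, with overlapping groups and a log2 fold change of -0.55 ± 0.27 SE (edgeR adjusted p = 0.295). Klf13 averaged 293.3 ± 82.1 CPM in WT and 241.4 ± 24.3 CPM in URE (-0.29 ± 0.19, adjusted p = 0.481). Klf3 averaged 8.27 ± 1.76 and 10.4 ± 3.04 CPM (0.32 ± 0.28, adjusted p = 0.620). For Klf12, at 10.2 ± 3.95 and 10.1 ± 5.81 CPM, the value was -0.02 ± 0.44 (adjusted p = 0.991). All of these groups overlapped.

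**Figure D3:**
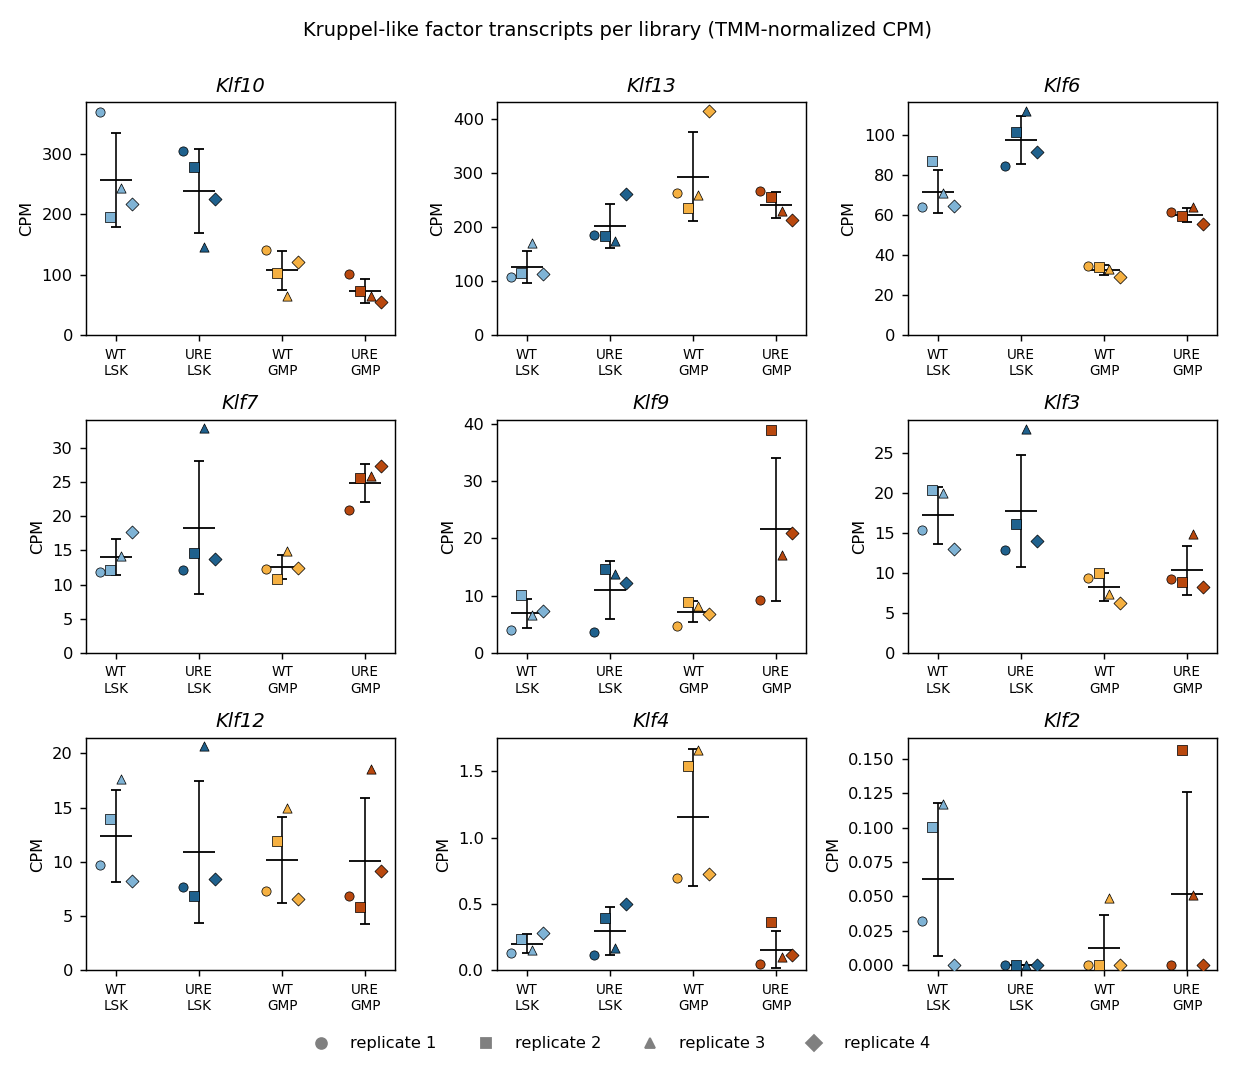
CPM of each member in each of the 16 libraries, by group, with marker shape for the replicate number; horizontal bars are means and error bars SD (n = 4). Klf6, Klf7 and Klf9 lie higher in URE GMPs than in WT GMPs without overlap, Klf4 lies lower, and Klf2 is at or near 0 throughout.

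In LSKs no member was called between genotypes. Of the 7 members tested, 2 had an unadjusted p under 0.05 in edgeR, and DESeq2 called 0 as well; over all genes edgeR called 6.14%. Their median log2 fold change was 0.36, against 0.00 for all genes tested, with 5 up and 2 down in sign.

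Klf13, which encodes a SIN3A-binding repressor known in T cells and heart, came nearest to the threshold. It measured 107.9, 115.1, 171.6 and 112.7 CPM in WT LSKs and 185.4, 183.1, 175.0 and 262.1 CPM in URE LSKs. Every URE library was above every WT library, by a small margin over WT replicate 3; over all genes 12.6% had groups that did not overlap in this comparison. The log2 fold change was 0.63 ± 0.22 SE (edgeR adjusted p = 0.157). The exact permutation test gave a two-sided p of 0.0286, the smallest that 4 against 4 allows. Any groups without overlap give this value, so it restates the lack of overlap. Without WT LSK replicate 3 the value was 0.85 with an adjusted p of 0.0365, and in the sex-matched replicates 1 and 4 it was 0.99 with an adjusted p of 0.0430. In replicates 2 and 3 it was 0.29.

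Klf6 leaned the same way in LSKs. Its WT libraries held 64.1, 87.1, 71.3 and 64.5 CPM and its URE libraries 84.7, 101.6, 112.4 and 91.7 CPM, so that only WT replicate 2 reached into the URE range. The log2 fold change was 0.41 ± 0.17 SE (edgeR adjusted p = 0.268), higher in 4 of 4 numbered pairs. In GMPs its value was 0.87, and the difference between these effects was 0.43 ± 0.20 (adjusted p = 0.423), so that the effect was not shown to differ between the cell types.

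The remaining members did not pass in LSKs, and their groups overlapped. Klf9 averaged 6.94 ± 2.52 CPM in WT and 11.1 ± 5.06 CPM in URE (0.65 ± 0.45 SE on the log2 scale, edgeR adjusted p = 0.629). Klf7 averaged 14.0 ± 2.65 and 18.4 ± 9.75 CPM (0.36 ± 0.34, adjusted p = 0.788), with 32.9 CPM in URE replicate 3 and 12.1 to 14.6 in the others. Klf10, at 256.0 ± 77.8 and 238.2 ± 69.4 CPM, gave -0.14 ± 0.27. Klf12, at 12.4 ± 4.24 and 10.9 ± 6.53 CPM, gave -0.22 ± 0.42. Klf3, at 17.2 ± 3.61 and 17.8 ± 6.997 CPM, gave 0.02 ± 0.30, and its sign, like those of Klf7, Klf10 and Klf12, turned when single libraries were left out. Klf4 was under the filter in LSKs, with 4, 7, 4 and 7 counts in WT and 3, 12, 4 and 12 in URE. Its pooled ratio of URE to WT was 1.52, with a 95% exact interval of 0.851 to 2.75 for counting error only.

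Whether the genotype effect differed between GMPs and LSKs was tested by an interaction over all 16 libraries, and no member passed. Over all genes 1.22% were called by edgeR, and in simulated data this test recovered 32% of 4-fold changes. Klf4 entered this test through its WT GMP libraries, with 101 counts there against 22 in WT LSKs, 31 in URE LSKs and 12 in URE GMPs, so that its values are given as a description. For Klf4 the difference in log2 effects was -3.40 ± 0.88 SE (edgeR adjusted p = 0.0759). Blocked by replicate number it was -3.46 and passed (adjusted p = 0.0178), and DESeq2 gave -3.50 (adjusted p = 0.0124). Without URE GMP replicate 2 it was -4.23 and also passed (adjusted p = 0.0386). Klf13 gave -0.95 ± 0.29 (adjusted p = 0.145). Klf4, Klf6 and Klf13 were the members with an unadjusted p under 0.05.

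**Figure D4:**
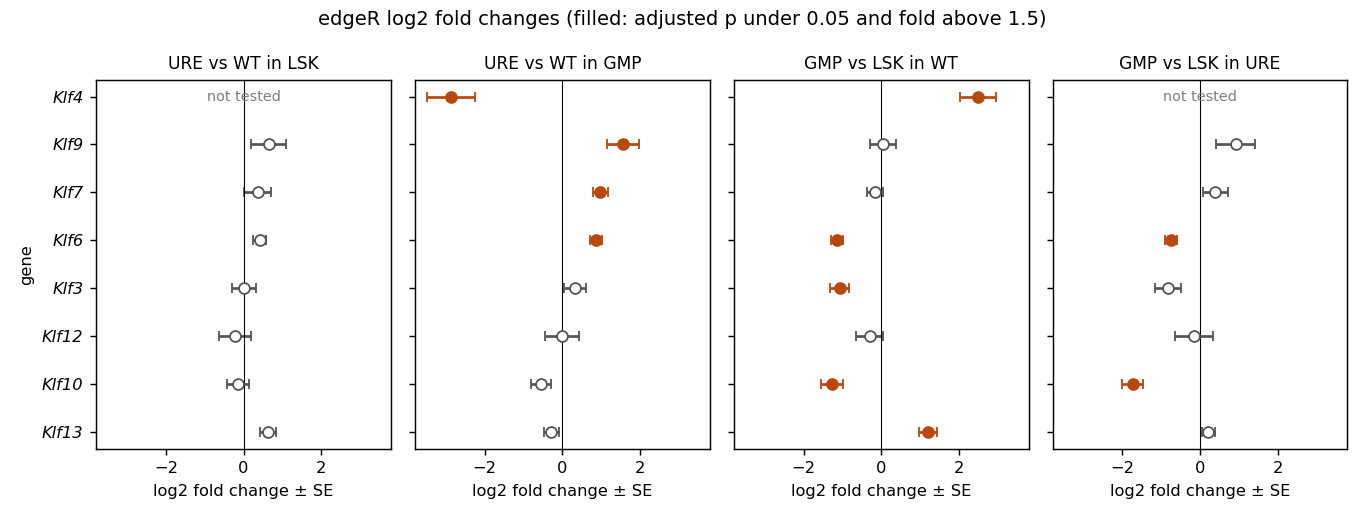
Points are edgeR log2 fold changes and bars their SE for the members tested. These were 8 in URE vs WT in GMP and GMP vs LSK in WT and 7, without Klf4, in URE vs WT in LSK and GMP vs LSK in URE. Filled points are called, open points are not. In GMPs Klf4 lies at -2.86 and Klf9, Klf7 and Klf6 at 1.56, 0.98 and 0.87; Klf10 and Klf6 are lower in GMPs than in LSKs in both genotypes.

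Cell type was compared within each genotype. In the main analysis members were called in both directions in WT, but only lower in GMPs in URE. In WT mice, Klf4 and Klf13 were higher in GMPs than in LSKs, and Klf3, Klf6 and Klf10 were lower. Klf4 passed the filter through the group where it is high, and the 4 calls among the other 7 members tested stand beside 27.3% of all genes called by edgeR (11.5% higher and 15.8% lower), and these 4 and Klf4 were the members whose groups did not overlap, as for 31.4% of all genes. The members' median log2 fold change, which includes Klf4 and is therefore a description, was -0.23 and that of all genes -0.09. All 5 calls held in each of the 8 fits that left out a library. Those of Klf6 and Klf10 also held in replicates 1 and 4 alone and in replicates 2 and 3 alone. Klf3 lost its call in both (edgeR adjusted p = 0.0989 and 0.0586), Klf4 in replicates 1 and 4 (1.795, adjusted p = 0.103, against 3.07 in replicates 2 and 3) and Klf13 in replicates 2 and 3 (0.85, adjusted p = 0.0748).

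Klf10, which encodes the TGF-beta-induced repressor, measured 368.9, 195.3, 243.9 and 216.0 CPM in WT LSKs and fell to 140.7, 102.4, 65.01 and 120.8 CPM in WT GMPs. The log2 fold change was -1.27 ± 0.28 SE (edgeR adjusted p = 0.00901). In URE mice, with 304.0, 277.2, 146.3 and 225.3 CPM in LSKs and 101.1, 73.6, 65.4 and 54.1 CPM in GMPs, it was -1.73 ± 0.27 (adjusted p = 0.00211). Neither pair of groups overlapped.

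Klf6 was lower in GMPs in both genotypes. From the levels given above, it fell by 1.14 ± 0.16 SE on the log2 scale in WT (edgeR adjusted p = 0.00123) and by 0.74 ± 0.15 in URE (adjusted p = 0.00850), with no overlap in either. In URE mice Klf6 and Klf10 were the 2 calls among 7 members tested, against 21.8% of all genes called and 26.6% without overlap. Their call held in all 8 fits that left out a library; that of Klf6 was lost in replicates 1 and 4 alone, where its fold fell under 1.5, and in replicates 2 and 3 alone (adjusted p = 0.163).

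Klf3, which encodes a CtBP-binding repressor known in erythroid and B cells, was higher in LSKs. It stood at 15.4, 20.4, 20.1 and 13.02 CPM in WT LSKs and 9.36, 10.1, 7.43 and 6.23 CPM in WT GMPs, without overlap (log2 fold change -1.07 ± 0.25 SE, edgeR adjusted p = 0.0110). In URE mice it stood at 12.95, 16.1, 28.1 and 14.0 CPM in LSKs and 9.31, 8.93, 14.9 and 8.28 CPM in GMPs. These groups overlapped only through replicate 3, which was the highest of both. The value was -0.82 ± 0.33 (adjusted p = 0.107) without a block and -0.79 ± 0.19 (adjusted p = 0.0114) when blocked by replicate number. In GENCODE M21, 404 exonic bases of Klf3 lie opposite Gm20033, which had 0 to 18 counts per library.

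Klf13 rose from LSKs to GMPs in WT. Its GMP libraries held 263.1, 235.7, 259.4 and 415.1 CPM against the LSK levels of 107.9 to 171.6 CPM, a log2 fold change of 1.20 ± 0.23 SE (edgeR adjusted p = 0.00495). In URE mice the GMP libraries held 266.4, 256.0, 230.5 and 212.8 CPM and the LSK libraries 175.0 to 262.1 CPM, which overlapped. The value there was 0.22 ± 0.18 (adjusted p = 0.419), and as given above the difference between genotypes did not pass.

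Klf4 was higher in WT GMPs, with values that are again a description. It had a pooled level 5.89-fold that of WT LSKs (101 and 22 counts, 95% exact interval 3.68 to 9.81, counting error only) and a log2 fold change of 2.497 ± 0.471 SE (edgeR adjusted p = 0.00419; 2.51 and also called with no filter). In URE mice Klf4 was under the filter, and 12 counts in GMPs against 31 in LSKs gave a ratio of 0.519 (0.243 to 1.04). Of the 7 monocyte markers, 6 were called higher and 1 lower in GMPs than in LSKs in WT, and 5 higher and 0 lower in URE, where Klf4 was not higher.

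Klf7, Klf9 and Klf12 did not pass between WT cell types, at log2 fold changes of -0.16 ± 0.21, 0.04 ± 0.33 and -0.29 ± 0.35 SE. Klf12 was lower in GMPs in 4 of 4 numbered pairs, and blocked by replicate number it gave -0.31 ± 0.13 (edgeR adjusted p = 0.0778). In URE mice, Klf9 gave 0.92 ± 0.50 (edgeR adjusted p = 0.235) and was higher in GMPs in 4 of 4 numbered pairs, and with the replicate block it passed (0.92 ± 0.23, adjusted p = 0.0160). Klf7 gave 0.40 ± 0.33 (adjusted p = 0.437) and 0.89 (adjusted p = 0.0190) without URE LSK replicate 3. Klf12, which encodes a CtBP-binding repressor of AP-2alpha, gave -0.15 ± 0.49 and was not called in any comparison.

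For 3 members, Klf12, Klf9 and Klf10, the same replicate number was the highest or the lowest in all 4 groups. Klf12 was highest in replicate 3 of all 4 groups, at 17.6 CPM in WT LSKs, 20.6 in URE LSKs, 15.0 in WT GMPs and 18.6 in URE GMPs. Klf9 was lowest in replicate 1 and highest in replicate 2 of all 4 groups, with 3.91 and 10.0 CPM in WT LSKs, 3.63 and 14.7 in URE LSKs, 4.72 and 8.93 in WT GMPs, and 9.26 and 38.9 in URE GMPs. Klf10 was highest in replicate 1 of all 4 groups. Klf4 was lowest there, at 1 to 16 counts, but its margin to the next library was within counting error. The labels do not say whether LSKs and GMPs of one number came from the same mouse. Klf6 varied least, with a ratio of its highest to lowest library between 1.16 and 1.36 within the groups, against 2.13 to 3.17 for Klf12 and 1.89 to 4.202 for Klf9.

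**Figure D5:**
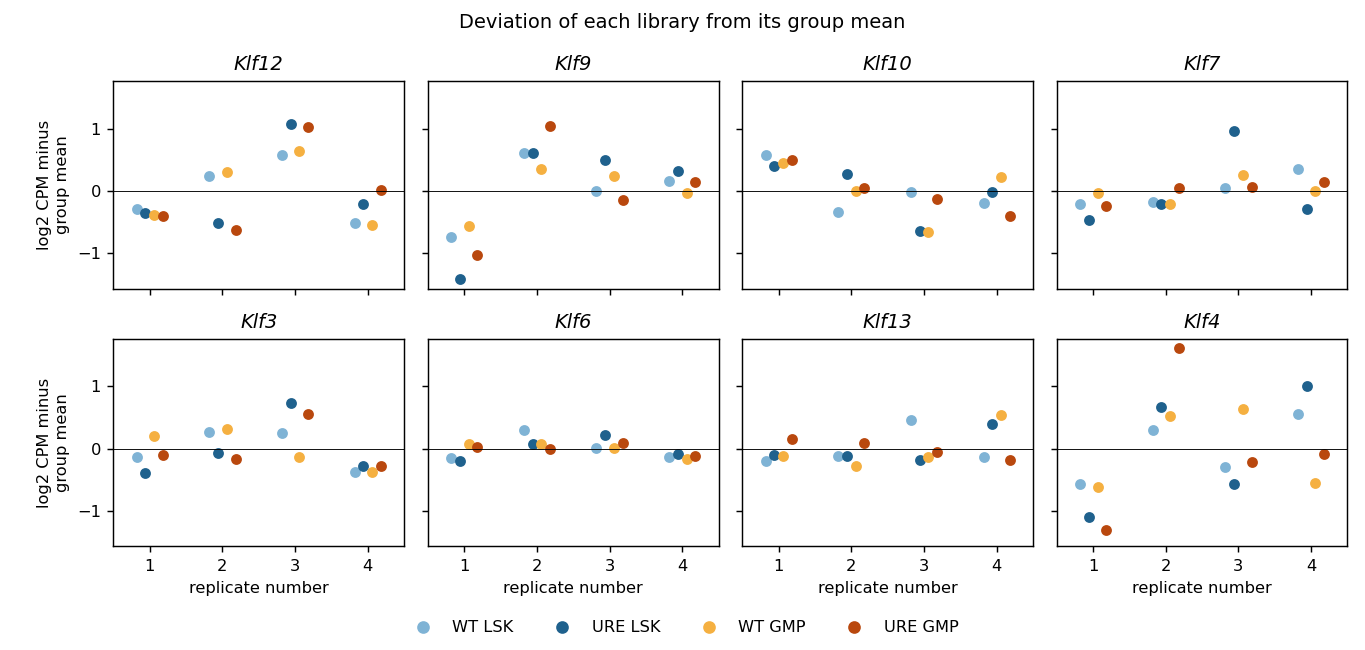
Each point is a library's log2 CPM minus the mean of its group, by replicate number, for 8 members. Klf12 lies above 0 in replicate 3 of all 4 groups, Klf9 below 0 in replicate 1, and Klf10 above 0 in replicate 1, while Klf6 stays near 0.

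The relatives and partners of these factors were described from fixed lists. Of 17 other KLF and SP genes, 9 were tested. In GMPs only Klf5, an activator of proliferating epithelia and myeloid progenitors, was called between genotypes (log2 fold change 1.87 ± 0.43 SE, edgeR adjusted p = 0.0287), and in LSKs none was. Between cell types, Klf1, the erythroid activator, was higher in GMPs in WT (3.31) and URE (3.91). There 5 and 3 of the 9 tested erythroid and megakaryocyte markers, a list that holds Klf1, were also called higher and 2 and 1 lower. Sp4 was lower in both (-1.30 and -0.85), Klf11 was lower in WT (-1.63) and Klf5 was higher in URE (3.16). Klf5 passed the filter on low counts there through its GMP libraries (2.51 to 6.27 CPM, against 0 to 0.878 in URE LSKs). Its value there is therefore a description. Over all genes edgeR called 8.3% between genotypes in GMPs, and 27.3% in WT and 21.8% in URE between cell types. The 6 corepressor genes through which KLF3, KLF9 or KLF12 act (Ctbp1, Ctbp2, Sin3a, Sin3b, Hdac1 and Hdac2) were all tested, and none was called in any of the 5 comparisons.

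The ERK5-MEF2 route, which induces Klf2 and Klf4 in other cells, had all 7 genes tested. Mef2c, a factor of monocyte against granulocyte choice, was called lower in URE LSKs (-1.70 ± 0.18 SE, edgeR adjusted p = 0.000659) and in URE GMPs (-1.68 ± 0.29, adjusted p = 0.00784). Mef2d was lower in URE GMPs (-0.91 ± 0.20, adjusted p = 0.0235), and no gene of the list was called higher. The list's median was -0.15 in LSKs and -0.34 in GMPs, against 0.00 and 0.01 for all genes. Over all genes 6.14% were called in LSKs and 8.3% in GMPs. Between cell types Mef2a was lower in GMPs in both genotypes (-1.15 and -1.20), and Map3k3 in URE (-0.88).

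The 7 genes of the TGF-beta route, which induces Klf10, were all tested. None was called between genotypes. Smad3 was lower in GMPs than in LSKs in WT (-1.09 ± 0.20 SE, edgeR adjusted p = 0.00375) and URE (-1.30 ± 0.32, adjusted p = 0.0167), as Klf10 was; Smad7 was lower in WT (-1.37) and Smad4 in URE (-0.90). The list's medians were -0.78 in WT and -1.03 in URE, against -0.09 for all genes in both. Over all genes 27.3% were called between cell types in WT and 21.8% in URE.

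Of 10 genes known as targets of KLF2 or KLF4, 7 were tested in GMPs and 2 were called lower in URE. Over all genes 3.63% were called lower, and the list's median was -0.50 against 0.01 for all genes. Cd14, a monocyte surface protein, gave -4.22 ± 0.53 SE (edgeR adjusted p = 0.00174) and Ccr7, a homing receptor, -2.63 ± 0.66 (adjusted p = 0.0413). Ccr7 passed the filter on low counts through its WT GMP libraries (0.866 to 1.66 CPM, against 0 to 0.386 in URE GMPs). Its value is therefore a description. In LSKs, where Klf2 and Klf4 had at most 12 counts in a library, Cd14 (-4.21) and Ccr7 (-2.04) were lower and Itgb7, an integrin chain of homing, was higher (0.90), of 8 tested. Cd14 passed the filter there through its WT LSK libraries (4.312 to 7.498 CPM, against 0 to 0.6298 in URE LSKs), so its value is a description. The 7 monocyte markers summed to 58.5 to 116.2 CPM in WT LSKs and 11.1 to 22.3 CPM in URE LSKs, with 4 called lower; their part in the Cd14 value was not tested. From LSKs to GMPs in WT, Cd14 (2.73) and Thbd (1.05) were among those higher and S1pr1 (-1.956), Ccr7 (-2.82), Itgb7 (-1.15) and Cdkn1c (-2.63) were lower. In URE, Cdkn1a (1.92) was higher and Ccr7 (-3.47), S1pr1 (-3.12) and Itgb7 (-1.25) were lower. Over all genes edgeR called 27.3% in WT and 21.8% in URE. Cdkn1c in WT and Ccr7 in URE passed the filter through their LSK libraries, where they are high, so these values are a description.

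Klf6 and Klf10 are known to respond quickly to stimulation, and immediate-early genes, which rise during handling and sorting, were read beside them. Of 15 such genes, 12 were tested between cell types in WT, and 7 were lower and 1 higher in GMPs. Over all genes 15.8% were called lower and 11.5% higher. The list median was -1.84, against -0.09 for all genes. Egr1 (-2.77), Dusp1 (-2.32), Zfp36 (-2.31), Ier3 (-2.21), Jun (-2.09), Socs3 (-2.60) and Btg2 (-0.83) were lower and Fos was higher (1.19). Egr1 passed the filter on low counts through its LSK libraries (0.976 to 3.19 CPM, against 0.244 to 0.390 in WT GMPs). Its value is therefore a description. In URE, Nr4a1 (-3.08), Jun (-1.62) and Zfp36 (-1.24) were lower and Fos was higher (1.46), of 12 tested, against 21.8% of all genes called. The list median there was -0.91, against -0.09 for all genes. Nr4a1 passed the filter through its LSK libraries (1.06 to 2.57 CPM, against 0.154 to 0.366 in URE GMPs), so its value is also a description. The list summed to 283.2 to 461.4 CPM in WT LSKs, 253.1 to 495.8 in URE LSKs, 178.7 to 362.9 in WT GMPs and 169.5 to 327.5 in URE GMPs. Between genotypes in GMPs, where Klf6 rose, none of 10 tested was called by edgeR, and 3 had an unadjusted p under 0.05, all higher in URE. These were Socs3 (2.62, adjusted p = 0.0822), Ier3 (1.25, adjusted p = 0.0639) and Jun (1.23, adjusted p = 0.173), and the list's median was 0.26 against 0.01 for all genes. In LSKs Btg2 was called lower (-1.70), of 12 tested, against 6.14% of all genes called. The list median there was -0.43, against 0.00 for all genes. In the interaction Ier3 (1.89) and Btg2 (1.41) were called, of 12 tested, against 1.22% of all genes. The part of handling in the levels of Klf6 and Klf10 was not tested.

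The genes most like each member over the 16 libraries were found by Pearson's r of log2 CPM among genes with a mean log2 CPM of at least 3, a description that carries the group differences and the shared replicates with it. The most alike to Klf6 were Vegfc (0.96), Armcx1 (0.96) and Itm2a (0.96), and to Klf10 Shfl (0.95), Zdhhc15 (0.95) and Thsd1 (0.94). Klf13 was nearest to Golt1b (0.95), Ptcd3 (0.95) and Rfc4 (0.92), and Klf3 to Scaper (0.92), Prxl2a (0.92) and Zfp945 (0.92). Klf7 was nearest to Cd9 (0.91), Clu (0.89) and Mxi1 (0.87). The likeness was lower for Klf9, with Htatsf1 (0.86) and Uros (0.86) among the nearest, for Klf12, with Pot1b (0.86), 9330162G02Rik (0.85) and Ddx23 (0.85), and for Klf4, with Top1mt (0.86), Nap1l1 (0.85) and Meaf6 (0.84).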

How the data were processed

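Low-input, unstranded polyA RNA-seq libraries were made by the authors from up to 10 ng of RNA per sorted sample. The deposited table holds estimated counts per gene from Salmon on GRCm38 per the labels, without molecular identifiers; the version and annotation release are not given in the sources used here. Of 54347 gene identifiers, 54094 were found in GENCODE M21. The estimated counts were taken as whole numbers, with any fraction dropped. Groups were taken from the labels, with 4 libraries each.

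Genes were filtered by filterByExpr and tested with edgeR 4.0.16 (R 4.3.3, limma 3.58.1; TMM, quasi-likelihood F test, Benjamini-Hochberg over all genes tested); SE is the absolute log2 fold change over the square root of F. Calls in the main analysis needed a fold change over 1.5 with adjusted p under 0.05 (interaction: adjusted p only). CPM used TMM over all 16 libraries. Alternatives were DESeq2 1.42.0, RLE size factors, other filters and thresholds, thinned counts, a joint fit, the replicate block, pairs of replicates, and leaving out each library. Figures were drawn with matplotlib 3.10.9.

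Replicate numbers paired the libraries by the data alone: deviations from group means over genes correlated at 0.237 to 0.711 in every pair of the same number. Between cell types these values were 0.377 to 0.711, and 4 of 4 GMP libraries of each genotype matched their own number best. Between genotypes they were 0.237 to 0.586, and 3 of 4 URE libraries of each cell type did so. Other numbers within the sets 1 and 4 or 2 and 3 correlated at 0.215 to 0.262 on average, so the pairing is partly by set, and the sex-matched replicates 1 and 4 are also one such set. No libraries were duplicates (chi-square per degree of freedom at least 32.4). In simulated LSK data, 57% of 200 genes changed 4-fold were recovered with 4 false calls, and for the interaction 32% with 6 false calls. P-values of the genotype comparisons measure the spread between mice. Those between cell types and of the interaction treat all libraries as independent, which leaves out the shared replicate numbers unless the block is used. With the block, calls over all genes between cell types went from 4037 to 6041 in WT and from 3133 to 4591 in URE.

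The 9 members and all lists were chosen with earlier results of these data known. Genes named are the members, Spi1, the list genes that passed the test, and the 3 genes most like each member; some of these are not reported here.

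The depth of 20028302 to 29128858 counts per library gives a limit of 3 counts for a gene at 0; limits and exact intervals cover counting error only, since reads were not collapsed to molecules.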

Additional observations from a re-analysis of the deposited data

Results flagged for a closer look

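Among 32 groups of 4 libraries checked (8 members, Klf2 left out), 6 held a library whose distance from the rest was large for its group; chance alone gives about 1 in 20 such groups. Replicate 3 of URE LSKs stood apart for Klf7, at 32.9 CPM against 12.1 to 14.6 in the others, and for Klf12, at 20.6 CPM against 6.86 to 8.45. Replicate 3 of URE GMPs stood apart for Klf3, at 14.9 CPM against 8.28 to 9.31. Klf13 had 3 such libraries, namely replicate 3 of WT LSKs at 171.6 CPM (others 107.9 to 115.1), replicate 4 of URE LSKs at 262.1 CPM (others 175.0 to 185.4) and replicate 4 of WT GMPs at 415.1 CPM (others 235.7 to 263.1).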

How the results depend on the processing

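Between genotypes in GMPs, 4 members were called. The number was 0 at an adjusted p under 0.01 with a fold above 2, 2 under a minimum mean log2 CPM of 3 (which leaves out Klf4 and, at an adjusted p of 0.0693, Klf9), 0 in replicates 1 and 4 alone, 0 in replicates 2 and 3 alone and 1 to 3 when single libraries were left out. With RLE size factors Klf9 had an adjusted p of 0.0523. In LSKs the number went from 0 to 1 (Klf13) in replicates 1 and 4 alone and was 0 to 1 with single libraries left out. From LSKs to GMPs in WT it went from 5 to 3 in replicates 1 and 4 alone and to 3 in replicates 2 and 3 alone. It was 4 at the stricter threshold, where Klf3 (adjusted p = 0.0110) was lost, and 4 under the minimum mean, which leaves out Klf4. In URE it went from 2 to 1 at the stricter threshold, to 1 in replicates 2 and 3 alone and to 4 with the replicate block; it was 2 to 3 with single libraries left out, and in replicates 1 and 4 alone Klf7 (0.91, adjusted p = 0.0322) passed and Klf6 did not. For the interaction it went from 0 to 1 (Klf4) with the replicate block, with DESeq2 and, at most, with a library left out. The block changed no other call. Over all genes it moved the calls from 930 to 1433 in LSKs, from 1148 to 2260 in GMPs and from 194 to 1047 for the interaction, and DESeq2 called 1637, 2001 and 674; replicates 2 and 3 alone gave 386, 108 and 2, and between cell types 2507 against 4037 in WT and 810 against 3133 in URE. Replicates 1 and 4 alone gave 988 in LSKs, 1236 in GMPs, 174 for the interaction and, between cell types, 3033 in WT and 4222 in URE.

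Signs turned only for members that were not called. With the block, Klf3 in LSKs went to -0.031. In replicates 1 and 4 alone, Klf3 in LSKs went to -0.11, Klf7 in LSKs to -0.21 and Klf12 in GMPs to 0.18, and in replicates 2 and 3 alone Klf7 between WT cell types to 0.031. With single libraries left out, the LSK values ranged from -0.295 to 0.14 for Klf3, -0.079 to 0.52 for Klf7, -0.27 to 0.094 for Klf10 and -0.73 to 0.044 for Klf12; Klf12 ranged from -0.53 to 0.23 in GMPs, -0.63 to 0.41 between URE cell types and -0.32 to 0.68 in the interaction, and Klf9 from -0.16 to 0.28 between WT cell types. The cause was not tested.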
